A study of Mus musculus with 18 samples.

Results

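The transcripts described here are 8 genes of the machinery that drives and serves antigen presentation on class II MHC: Ciita, Cd74, Rfx5, Rfxap, Rfxank, Nlrc5, Ifi30 and Ctss. They were found by symbol in the count tables of mouse colon and spinal dorsal horn, and all 8 were present and passed the expression filter in both tissues, out of 14987 genes in the colon table and 15193 in the dorsal horn table. The genes were chosen by name from a list drawn up with earlier results of these data known, in which the level of Cd74 with nivolumab in the dorsal horn had been seen. Cd74 and Ciita, the pair for which the set is named, are therefore described by their values in the comparisons of the groups, with no test of their own. Where the fits of all genes put them past or short of the threshold in those comparisons, this is a description and supports nothing. The class II molecules themselves were not analysed here, since of 9 looked up by symbol 0 were present in either count table.

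Each tissue had 3 groups of 3 bulk RNA libraries, all of wild-type genotype per the labels. The sham group received IgG, the cancer group had cancer and received IgG, and the nivolumab group had cancer and was given nivolumab, a therapeutic antibody raised to block human PD-1. The title of the series names bone cancer pain as the model. The sources used here do not give the strain, the age, the tumour cells, the dose, the times of treatment or the binding of this antibody to mouse PD-1. The question behind the comparisons is what PD-1 blockade does in that model. Nothing in the labels ties libraries to separate animals, so each p-value is set against a spread between samples that may be technical. In bulk tissue, fewer cells of a type and less RNA per cell cannot be told apart.

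Class II molecules carry peptides from endosomes to helper T cells. CIITA does not bind DNA itself. It is the coactivator that turns class II genes on, docking on an assembly built over their promoters by the RFX complex (RFX5, RFXAP and RFXANK) with CREB and NF-Y. Interferon gamma induces CIITA in many cell types, while B cells and dendritic cells express it without that signal. NLRC5 is the related coactivator of class I genes and uses the same RFX complex. CD74, the invariant chain, fills the groove of new class II molecules and is itself a CIITA target. Cathepsin S (Ctss) trims CD74 away in endosomes, and IFI30 (also called GILT) reduces disulfide bonds of the antigens there. CD74 on the cell surface is also a receptor for the cytokine MIF.

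The upstream sequence of 3 of the genes is shown because it carries letters of elements bound by the factors just named. Entries were found by symbol for 4 of the 8 genes, and the window of Ifi30 is not printed because it lies within an exon of another gene. The sequences are from RefSeq on the GRCm38.p6 build, in the direction of transcription, and stop before the first annotated exon. Rfx5 (chromosome 3, 94954075 to 94961561, plus strand) and Rfxank (chromosome 8, 70130794 to 70139154, minus strand) encode subunits of the RFX complex. Their windows were chr3:94953858-94954074 and chr8:70139198-70139447. Ctss (chromosome 3, 95526786 to 95556403, plus strand) is shown over chr3:95526536-95526785. Capitals mark CCAAT, the core bound by NF-Y, on either strand (ATTGG on the minus strand), GCAAC in Rfx5, letters found in sites that RFX proteins bind, and 2 copies of GAAA with 2 bases of any kind between them in Ctss, the core of an element bound by interferon regulatory factors.
Rfx5: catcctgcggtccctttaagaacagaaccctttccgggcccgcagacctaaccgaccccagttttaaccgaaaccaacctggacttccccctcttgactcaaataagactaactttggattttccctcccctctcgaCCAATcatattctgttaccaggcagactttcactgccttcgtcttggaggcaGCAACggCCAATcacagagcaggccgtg
Rfxank: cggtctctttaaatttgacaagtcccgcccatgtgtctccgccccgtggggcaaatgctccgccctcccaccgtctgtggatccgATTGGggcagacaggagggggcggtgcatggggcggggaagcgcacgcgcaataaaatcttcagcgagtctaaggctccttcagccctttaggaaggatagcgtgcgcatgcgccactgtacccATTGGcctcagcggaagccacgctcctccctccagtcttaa
Ctss: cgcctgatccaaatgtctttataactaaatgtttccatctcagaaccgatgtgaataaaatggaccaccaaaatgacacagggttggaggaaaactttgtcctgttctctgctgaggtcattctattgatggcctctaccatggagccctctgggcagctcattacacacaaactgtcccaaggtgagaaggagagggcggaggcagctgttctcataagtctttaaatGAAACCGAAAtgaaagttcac
The Rfx5 window held 2 CCAAT matches, beginning 113 and 54 bases before the RefSeq start, and 1 GCAAC match at 61 bases, so that GCAAC and the nearer CCAAT lie side by side. The Rfxank window held 2 CCAAT matches, at 165 and 41 bases, and no GCAAC match. The Ctss window held 1 match to the paired GAAA at 21 bases and no CCAAT match. Among 32851 RefSeq promoters, each searched over 250 bases before the start on both strands, 33.8% held CCAAT, 29.9% held GCAAC and 2.98% held the paired GAAA. No match overlapped another, and a match describes letters and not binding.

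Total counts ran from 20896854 to 30803957 per colon library and from 21855085 to 29071908 per dorsal horn library, so that 3 counts corresponded to 0.0950 to 0.149 CPM (the usual scaling of counts by library total, here with TMM factors) and 0.103 to 0.132 CPM. The tissues carried their own markers. Summed over 9 colon epithelium genes the colon libraries had 9937 to 24503 CPM, and over 11 dorsal horn neuron genes the dorsal horn libraries had 4152 to 5647 CPM. The dorsal horn libraries also differed in transcripts of neighbouring tissue. The mean of 14 sensory ganglion markers was 1.07 to 1.33 log2 CPM in sham 1, sham 2, cancer 1 and cancer 2, it was 4.93 in sham 3 and 5.01 in cancer 3, and it was 5.96 to 6.63 in the nivolumab libraries. The main dorsal horn values and list counts below are therefore also given without sham 3 and cancer 3, and with the mean ganglion marker level as a covariate, where these moved them. For the gene lists both were chosen after seeing the data. Every nivolumab library exceeded all others in these markers, so the covariate cannot be fully told apart from the treatment. Its effect rests mostly on sham 3 and cancer 3, and values with it are a description only.

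Sham libraries showed how differently the 8 genes are used in the 2 tissues. Cd74 had 547 times the level in sham colon of that in sham dorsal horn (log2 difference 9.10, SE 0.52, adjusted p = 1.37e-09). Ciita was 43.0-fold higher in the colon (5.43, SE 0.29, adjusted p = 6.41e-10), Nlrc5 34.5-fold (5.11, SE 0.34, adjusted p = 5.52e-09), Ifi30 27.8-fold (4.80, SE 0.27, adjusted p = 1.40e-09) and Ctss 4.93-fold (2.30, SE 0.27, adjusted p = 1.95e-06). The RFX subunits differed far less. Rfxank was 1.48-fold higher in the colon (adjusted p = 0.00229), whereas Rfx5 was 1.58-fold lower (−0.66, adjusted p = 0.00112) and Rfxap 1.87-fold lower (−0.91, adjusted p = 0.000228). All 8 genes passed in this comparison, as did 75.2% of the 14164 genes tested, so the count itself says little. The sizes were 1.48-fold to 1.87-fold for the RFX subunits and 4.93-fold to 547-fold for the other genes. The part of the different cells of the tissues in these sizes was not tested.

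Levels were compared between genes only as CPM per kilobase of annotated exon. In sham colon Cd74 stood first with 949.1 ± 145.9 (SD, n = 3), then Ctss with 237.7 ± 41.6 and Ifi30 with 109.8 ± 4.01. Rfxank (14.5 ± 1.31) and Nlrc5 (12.2 ± 0.377) followed. Ciita had 6.42 ± 1.79, Rfx5 5.24 ± 0.298 and Rfxap 5.16 ± 0.188, and the ranges of neighbours among these last 3 overlapped. In sham dorsal horn Ctss stood first with 50.1 ± 1.99 CPM per kilobase, and Rfxank (10.1 ± 0.366), Rfxap (10.01 ± 0.712) and Rfx5 (8.59 ± 1.19) came next with overlapping ranges. Ifi30 (4.09 ± 1.003), Cd74 (1.80 ± 0.905), Nlrc5 (0.365 ± 0.0832) and Ciita (0.155 ± 0.0517) followed without overlap between neighbours. The order was not the same in every group. Cd74 went from the sixth place in sham and cancer dorsal horn to the second with nivolumab (10.8 ± 1.67), where its range overlapped that of Rfxank. Ciita went from the fifth and sixth places in cancer and sham colon to the last with nivolumab (3.35 ± 0.240). Colon Rfxank went from the fourth place in sham and with nivolumab to the sixth in cancer, and neighbouring places also changed among the RFX subunits of the dorsal horn, whose neighbours overlapped in sham and in cancer.

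Ciita, the coactivator of class II genes (chromosome 16, 10480059 to 10528418, GRCm38), had its lowest colon levels with nivolumab. Its levels there were 80.9, 52.3 and 50.4 CPM in sham 1 to 3, 70.3, 99.3 and 84.9 in cancer 1 to 3, and 29.9, 31.4 and 34.4 in nivolumab 1 to 3. All 3 nivolumab libraries lay below all 6 others, while sham and cancer overlapped. The mean with nivolumab was 2.66-fold lower than in cancer (log2 fold change −1.41, SE 0.21) and 1.92-fold lower than in sham (−0.94, SE 0.21), and cancer against sham had 0.47 (SE 0.21). Dorsal horn Ciita had 1.48, 1.97 and 0.986 CPM in sham, 1.68, 2.06 and 1.37 in cancer and 2.16, 1.99 and 1.89 with nivolumab, from 26 to 58 counts per library. The groups overlapped, and the fold changes were 0.20 (SE 0.30) for cancer against sham, 0.24 (SE 0.30) for nivolumab against cancer and 0.44 (SE 0.30) for nivolumab against sham. With the ganglion covariate Ciita had 0.88 against cancer and 1.12 against sham, and without sham 3 and cancer 3 it had 0.11 and 0.24. Ciita overlaps the convergent gene Dexi on the other strand, and without a stated strand setting their shared reads cannot be told apart. The same limit holds for Rfx5, Nlrc5 and Ifi30, which overlap B230398E01Rik, 9330175E14Rik and 6330537M06Rik on the other strand.

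Nlrc5, the coactivator of class I genes (chromosome 8, 94434356 to 94527272), had colon levels of 102, 107 and 102 CPM in sham, 128, 133 and 142 in cancer and 138, 72.5 and 82.7 with nivolumab. Cancer lay above sham in every library, yet the fold change of 0.38 (SE 0.22) did not pass (adjusted p = 0.552). Against cancer the nivolumab value was −0.46 (SE 0.22, adjusted p = 0.523), with nivolumab 1 at the level of the cancer libraries. Dorsal horn Nlrc5 had 2.59, 2.80 and 3.90 CPM in sham, 3.35, 4.83 and 7.86 in cancer and 7.66, 5.49 and 5.74 with nivolumab. All nivolumab libraries lay above all sham libraries, and cancer ran across both. The fold change was 0.78 for cancer against sham (SE 0.31, adjusted p = 0.326), 0.24 for nivolumab against cancer (SE 0.30, adjusted p = 0.613) and 1.02 for nivolumab against sham (SE 0.31, adjusted p = 0.0713). The last passed in several alternative fits, among them DESeq2 (adjusted p = 0.0195) and the fit without sham 3 and cancer 3 (1.24, adjusted p = 0.0148), and it was 0.27 with the ganglion marker level as a covariate (adjusted p = 0.602).

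**Figure D1:**
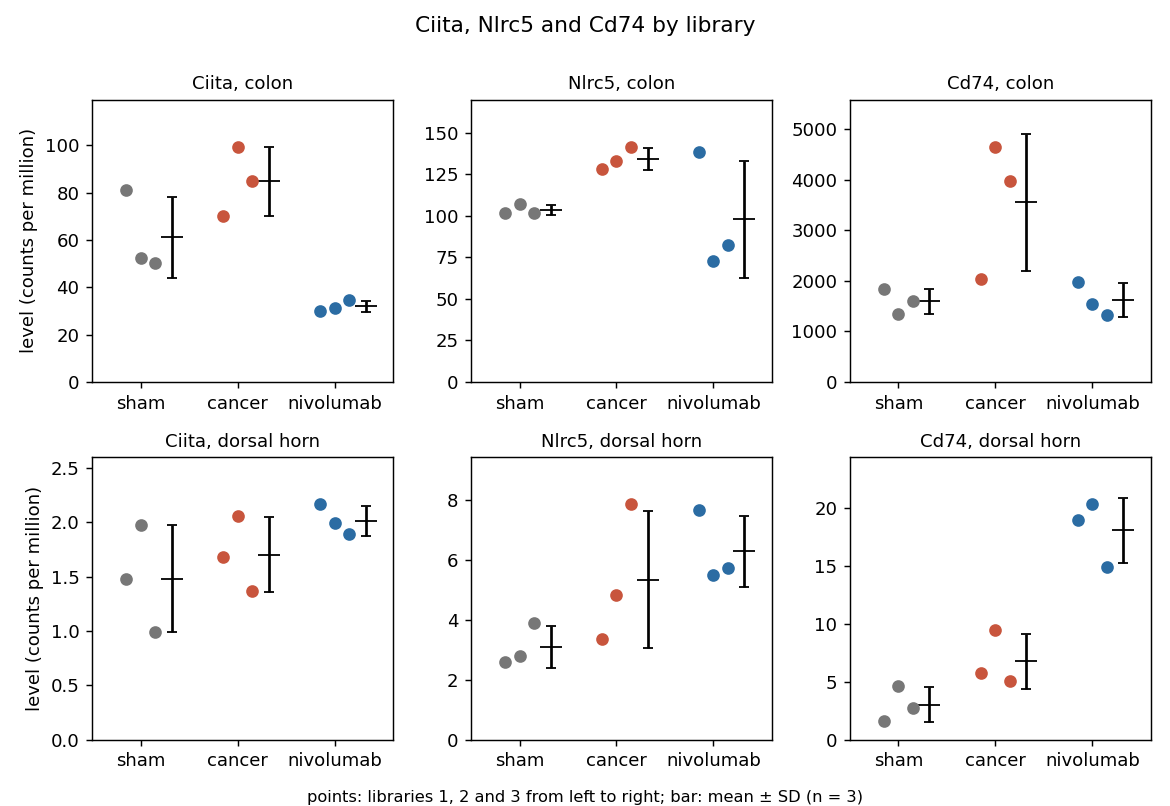
Levels of Ciita, Nlrc5 and Cd74 in CPM in each library of the colon (top) and dorsal horn (bottom), with the mean ± SD of each group (n = 3). Colon Ciita sits at 29.9 to 34.4 with nivolumab, below all other colon libraries, and dorsal horn Cd74 sits at 14.95 to 20.3 with nivolumab, above all other dorsal horn libraries.

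The RFX subunits did not move as a unit. Rfx5, which makes the contact with the X box of class II promoters, had dorsal horn levels of 41.9, 45.1 and 54.5 CPM in sham, 46.5, 53.9 and 55.5 in cancer and 34.1, 39.0 and 32.5 with nivolumab. The nivolumab libraries lay below all others. Rfx5 fell 1.48-fold against cancer (−0.56, SE 0.12, adjusted p = 0.0120), a value given as a description since results of this contrast were known when the list was drawn up, and nivolumab against sham had −0.42 (SE 0.12, adjusted p = 0.0513). The fall against cancer was not called without nivolumab 1 (−0.54, adjusted p = 0.0652) or nivolumab 3 (−0.51, adjusted p = 0.0572). With the ganglion marker level as a covariate it was −0.77 against cancer, and the difference from sham passed (−0.64, adjusted p = 0.0120). In the colon Rfx5 had 28.5, 30.6 and 27.3 CPM in sham, 37.1, 43.0 and 28.4 in cancer and 30.7, 36.8 and 30.5 with nivolumab, with overlapping groups and adjusted p-values of 0.534 to 0.948.

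Rfxank, the ankyrin-repeat subunit, differed most in the colon. It had 51.6, 61.5 and 59.4 CPM in sham, 27.2, 31.6 and 40.1 in cancer and 54.2, 53.3 and 43.7 with nivolumab. Cancer lay below both other groups in every library, with a mean 1.75-fold below sham (−0.80, SE 0.17), but did not pass over all genes (adjusted p = 0.205) except with DESeq2 (−0.78, adjusted p = 0.00773). Nivolumab against cancer had 0.61 (SE 0.17, adjusted p = 0.394). Dorsal horn levels of Rfxank were 38.6, 41.3 and 40.7 CPM in sham, 38.5, 32.7 and 31.2 in cancer and 36.3, 38.5 and 37.3 with nivolumab. Cancer lay just below sham there too (−0.23, SE 0.08, adjusted p = 0.281). Rfxank overlaps Nr2c2ap on the other strand, so its counts may include reads of that gene.

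Rfxap (chromosome 3, 54803115 to 54807791) was the smallest source of reads among the subunits in both tissues. In the colon it had 11.1, 11.99 and 11.6 CPM in sham, 7.47, 7.70 and 11.9 in cancer and 9.23, 10.7 and 12.3 with nivolumab. Its dorsal horn levels were 20.9, 22.4 and 24.1, then 23.5, 22.4 and 19.8, and 21.9, 19.2 and 19.8 CPM. The groups overlapped in both tissues, and no contrast passed (adjusted p = 0.377 to 0.996). Within libraries the balance of the subunits shifted. In the colon there were 0.503 ± 0.0462 Rfx5 counts per Rfxank count in sham, 1.15 ± 0.378 in cancer and 0.651 ± 0.0744 with nivolumab (n = 3), and every cancer and nivolumab library lay above the highest sham library. The dorsal horn ratio was 1.17 ± 0.144 in sham, 1.54 ± 0.299 in cancer and 0.941 ± 0.0707 with nivolumab, lowest with nivolumab in every library.

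**Figure D2:**
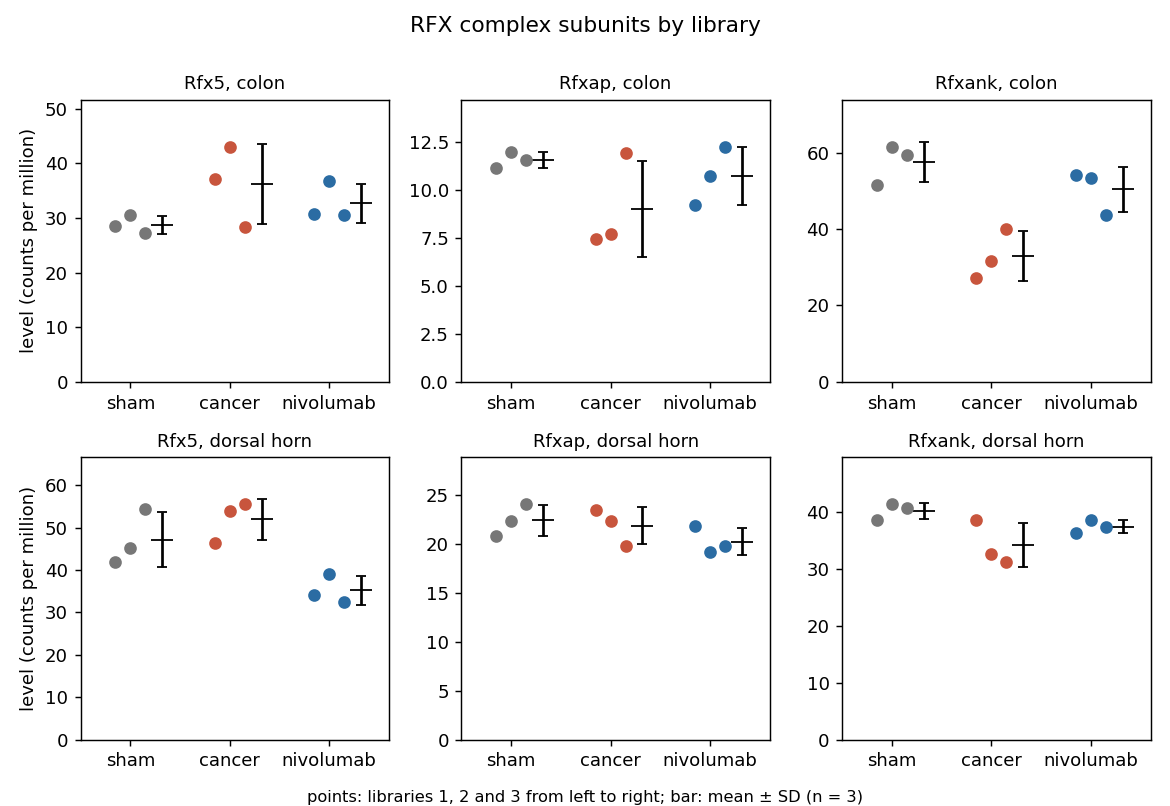
Levels of Rfx5, Rfxap and Rfxank in CPM in each library of both tissues, with group means ± SD (n = 3). Rfx5 is lowest with nivolumab in the dorsal horn (32.5 to 39.0), and Rfxank is lowest in cancer in the colon (27.2 to 40.1), while the groups of Rfxap overlap in both tissues.

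Cd74, the invariant chain (chromosome 18, 60803848 to 60812652), lay below cancer with nivolumab in every colon library and above it in every dorsal horn library. In the main edgeR fits neither the colon difference nor the difference between the tissues was past the threshold. DESeq2 put both past it, and edgeR did so for the tissue difference without some single colon libraries. This is a description and supports nothing. Its colon levels were 1839.6, 1349.5 and 1591.7 CPM in sham, 2038.8, 4652 and 3969 in cancer and 1983, 1551 and 1333 with nivolumab. Cancer lay above both other groups, narrowly in cancer 1 and by more than the whole spread of sham in the other 2 libraries. The cancer mean was 2.23-fold above sham (1.16, SE 0.31), nivolumab was 2.19-fold below cancer (−1.13, SE 0.31), and nivolumab and sham overlapped (0.03, SE 0.31). Dorsal horn Cd74 had 1.64, 4.65 and 2.77 CPM in sham, 5.76, 9.48 and 5.04 in cancer and 19.0, 20.3 and 14.95 with nivolumab, from 40 to 593 counts per library. The 3 groups did not overlap at any point, in the order sham, cancer, nivolumab. Cancer was 2.23-fold above sham (1.16, SE 0.37), nivolumab 2.67-fold above cancer (1.42, SE 0.35) and 5.97-fold above sham (2.58, SE 0.37). Sham 3 and cancer 3 had ganglion marker levels above the other sham and cancer libraries and below every nivolumab library. Every nivolumab library exceeded all others in both Cd74 and these markers. The part of ganglion tissue therefore cannot be told apart from that of nivolumab and was not tested. Without sham 3 and cancer 3, Cd74 had 1.25 for nivolumab against cancer and 2.54 against sham, and with the ganglion level as a covariate it had 1.88 and 3.02. In the fit of all genes the difference from cancer was past the threshold, which supports nothing because the level had been seen beforehand. The difference was no longer past it without sham 3 and cancer 3 together. The same held without any 1 of cancer 1, cancer 3, nivolumab 1, nivolumab 2 and nivolumab 3 (1.25 to 1.54).

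Ctss, which cleaves CD74, had no difference past the threshold. Its colon levels were 374, 262 and 332 CPM in sham, 349.6, 438 and 312 in cancer and 465, 302 and 325 with nivolumab. In the dorsal horn, where it stood first per kilobase in every group, it had 67.8, 65.4 and 70.8 in sham, 69.9, 82.4 and 43.2 in cancer and 76.8, 76.2 and 50.5 with nivolumab. The groups overlapped in every contrast (log2 fold changes −0.06 to 0.18, adjusted p = 0.736 to 0.995). With the ganglion covariate dorsal horn Ctss had 0.46 against cancer (adjusted p = 0.397) and 0.36 against sham (adjusted p = 0.512). Cancer 3 and nivolumab 3 were its lowest dorsal horn libraries.

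Ifi30, the thiol reductase (chromosome 8, 70762774 to 70766663), had colon levels of 107, 104 and 112 CPM in sham, 123, 72.2 and 91.1 in cancer and 119.8, 135 and 117 with nivolumab. The nivolumab libraries lay above sham (0.20, SE 0.18, adjusted p = 0.932) and overlapped cancer (0.38, SE 0.18, adjusted p = 0.523). With 73 to 172 counts per dorsal horn library, it had 3.00, 4.06 and 4.97 CPM in sham, 3.07, 6.55 and 5.57 in cancer and 4.24, 3.36 and 3.78 with nivolumab, and no contrast passed (adjusted p = 0.337 to 0.891). With the ganglion covariate dorsal horn Ifi30 had −0.77 against cancer (adjusted p = 0.184) and −0.43 against sham (adjusted p = 0.494). Across the 9 colon libraries its log2 level ran against that of Cd74 (Pearson r = −0.80) and that of Ciita (r = −0.76), a description over libraries that share the group structure.

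**Figure D3:**
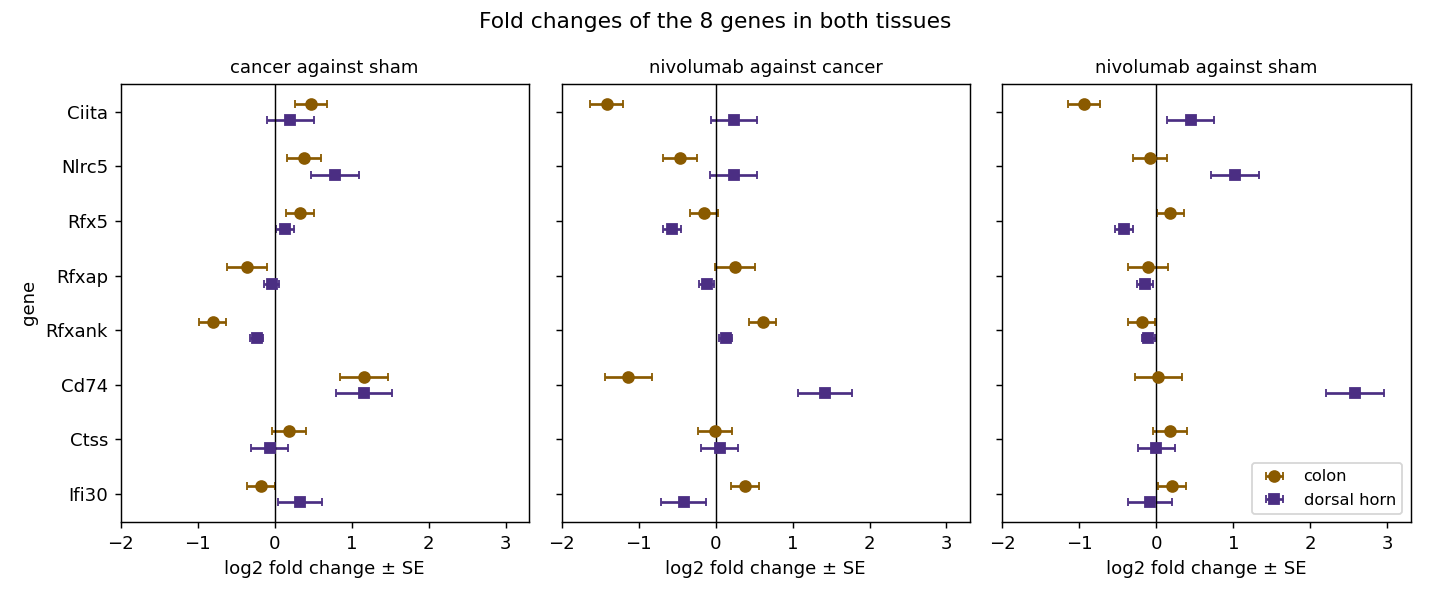
Log2 fold changes of the 8 genes with their SE (horizontal axis) in the colon (circles) and dorsal horn (squares), from fits of 9 libraries per tissue. Between nivolumab and cancer, Cd74 is at −1.13 (colon) and 1.42 (dorsal horn), and Ctss is near 0 in all 3 comparisons of both tissues.

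Counted over the 8 genes, edgeR called 0 in each colon contrast, where it called 0% of the 13445 genes tested in cancer against sham, 0% in nivolumab against cancer and 0% in nivolumab against sham. At an unadjusted p under 0.05 there were 2, 3 and 1 of the 8, beside 1468, 1323 and 867 of all genes. DESeq2 called 2 in cancer against sham (Cd74 and Rfxank), 2 in nivolumab against cancer (Ciita and Cd74) and 1 in nivolumab against sham (Ciita), beside 384, 186 and 146 of all genes. For the dorsal horn edgeR called 0 of the 8 in cancer against sham, beside 0.323% of 13609 genes, with 3 at an unadjusted p under 0.05 and 1 by DESeq2, where all genes gave 1783 and 361. It called 2 in nivolumab against cancer (Cd74 and Rfx5), beside 17.2% of genes, and 1 in nivolumab against sham (Cd74), beside 8.51%. Nothing is read from these counts, since the genes were chosen with results of these contrasts known. Groups that did not overlap were seen for 3, 3 and 2 of the 8 in the colon contrasts, beside 19.3%, 15.2% and 14.9% of all genes, and for 2, 2 and 4 in those of the dorsal horn, beside 16.8%, 40.1% and 35.2%.

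The responses of the tissues were compared in 1 fit of all 18 libraries. The fit took the libraries of the 2 tissues as independent, and nothing in the labels says whether the tissues came from the same mice. For the response to nivolumab against cancer, Cd74 differed by −2.62 (SE 0.52, colon minus dorsal horn) and Ciita by −1.72 (SE 0.35). Ifi30 had 0.73 (adjusted p = 0.299), Rfxank 0.42 (adjusted p = 0.318) and Nlrc5 −0.75 (adjusted p = 0.366). None of the 8 was called by edgeR, 3 had an unadjusted p under 0.05 and DESeq2 called 2, beside 0.127% of 14164 genes called by edgeR, 2325 at that p and 747 by DESeq2. For the response to cancer against sham the fit called 0 of the 8 and 0.155% of all genes, with 1 of the 8 at an unadjusted p under 0.05 (Rfxank, −0.53, SE 0.20, adjusted p = 0.370) and 0 by DESeq2, beside 1538 and 334 of all genes. Cd74 differed there by 0.04 (SE 0.54).

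The level of Cd74 relative to Ciita does not depend on how libraries are scaled. In the colon there were 22.7, 25.8 and 31.6 Cd74 counts per Ciita count in sham, 29.0, 46.8 and 46.7 in cancer and 66.3, 49.4 and 38.7 with nivolumab. Sham overlapped cancer by 1 library and lay wholly below nivolumab. The ratio in dorsal horn was 1.11, 2.36 and 2.81 in sham, 3.44, 4.61 and 3.68 in cancer and 8.78, 10.2 and 7.92 with nivolumab, with no overlap between the groups. The mean ratio thus went from 26.7 ± 4.50 to 51.5 ± 13.9 between sham and nivolumab colon and from 2.09 ± 0.879 to 8.98 ± 1.16 between sham and nivolumab dorsal horn (n = 3). The Cd74 levels themselves overlapped between sham and nivolumab in the colon and did not in the dorsal horn.

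**Figure D4:**
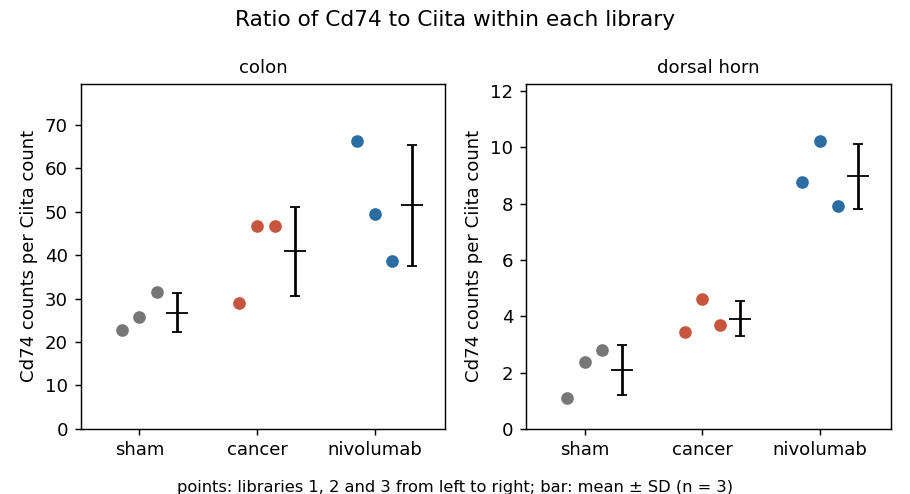
Cd74 counts per Ciita count in each library of the colon (left) and dorsal horn (right), with group means ± SD (n = 3). In the dorsal horn the groups are separate at 1.11 to 2.81, 3.44 to 4.61 and 7.92 to 10.2, and in the colon sham lies at 22.7 to 31.6 and nivolumab at 38.7 to 66.3.

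Upstream of Ciita lies the interferon gamma pathway. Of 8 tested dorsal horn genes induced by interferon gamma, 3 rose with nivolumab against cancer and 5 did not pass, with all 8 positive (median log2 fold change 1.05, beside 0.00 over all genes). Of all genes tested in that comparison 17.2% were called, 1175 higher and 1170 lower, and against sham 8.51% were called. These are the shares to set beside each main-fit count of the dorsal horn lists here and below. The fits without sham 3 and cancer 3 and with the ganglion covariate have shares of their own, so nothing is read from their list counts. Igtp, a GTPase of cell-autonomous defence, rose from 4.67 ± 0.798 to 14.9 ± 4.40 CPM (1.67, SE 0.22, adjusted p = 0.00274), Gbp6 rose by 1.47 (adjusted p = 0.00911) and Gbp2 by 1.04 (adjusted p = 0.0362). The same 3 rose against sham (1.74, 1.10 and 1.12). Without sham 3 and cancer 3, 4 of 9 tested rose against cancer and 3 against sham. With the ganglion covariate 2 of 8 rose in each comparison, Igtp (1.86 against cancer, adjusted p = 0.00385) and Gbp3 (2.90, adjusted p = 0.00115), while Gbp6 had 0.96 (adjusted p = 0.0798) and Gbp2 had 1.28 (adjusted p = 0.0518). In the colon edgeR called 0% of all genes in each contrast, which is the share beside every colon list here and below. None of 11 tested genes of the receptor arm and none of 9 induced genes passed there. The receptor arm was positive in 11 of 11 for cancer against sham (median 0.31, beside 0.00), and the induced genes were positive in 7 of 9 (median 0.40) and then, for nivolumab against cancer, in 2 of 9 (median −0.73, beside 0.03), with Gbp2 at −1.27 (SE 0.42, adjusted p = 0.474) and Igtp at −0.87 (SE 0.29, adjusted p = 0.479).

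Of the genes under Nlrc5, 7 class I genes were tested in each tissue. Dorsal horn B2m, the light chain of class I, rose with nivolumab from 81.2 ± 4.98 to 136 ± 5.92 CPM (0.74, SE 0.06, adjusted p = 0.00111) and the other 6 did not pass (5 of 7 positive, median 0.30). Against sham 2 of 7 rose, B2m (0.49, adjusted p = 0.00572) and the peptide-loading factor Tapbp (0.32, adjusted p = 0.0186), with all 7 positive (median 0.49). B2m also rose against cancer without sham 3 and cancer 3 (0.74) and with the covariate (0.71). Against sham 4 of 7 rose without these libraries, and 1 rose with the covariate, where Tapbp had 0.25 (adjusted p = 0.0989). In the colon none passed, while 7 of 7 were positive for cancer against sham (median 0.47) and 0 of 7 for nivolumab against cancer (median −0.43). Tap2, part of the peptide transporter, had 90.9 ± 8.55 CPM in sham, 171 ± 15.9 in cancer and 107 ± 35.2 with nivolumab (adjusted p = 0.235 and 0.465), and the immunoproteasome subunit Psmb9 had 0.48 and −0.55 (adjusted p = 0.381 and 0.459).

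Among the other proteases and inhibitors of endosomes and lysosomes, 4 of 15 tested in the dorsal horn rose with nivolumab against cancer and none fell (median 0.14), beside 17.2% of all genes called. Cathepsin D (Ctsd) rose from 470 ± 6.72 to 590 ± 5.49 CPM (0.33, SE 0.04, adjusted p = 0.00228), cathepsin L (Ctsl) from 124 ± 35.2 to 279 ± 60.5 (1.17, SE 0.28, adjusted p = 0.0288), cathepsin B (Ctsb) by 0.29 and the asparagine protease legumain (Lgmn) by 0.23. Without sham 3 and cancer 3, 4 rose and 1 fell. With the ganglion covariate 3 rose and 1 fell, Ctsl had 0.50 (adjusted p = 0.0857) and Ctsb had 0.14 (adjusted p = 0.249). Against sham 0 of 15 rose and 2 fell, the inhibitor cystatin C (Cst3, −0.26, adjusted p = 0.0167) and Ctsf (−0.39, adjusted p = 0.0348), and cancer against sham had Ctsd at −0.22 (adjusted p = 0.0624). Of 16 colon genes none passed. Ctsz had 230 ± 12.3 CPM in sham, 158 ± 10.6 in cancer and 220 ± 11.2 with nivolumab (adjusted p = 0.205 and 0.372). The proteases Sppl2a and Sppl2b, of which the first removes the last CD74 fragment from the membrane, did not pass in any contrast of either tissue (adjusted p = 0.473 to 0.996).

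Of 6 tested genes of MIF and its receptors in the dorsal horn, 1 rose and 1 fell with nivolumab against cancer. Cxcr4 rose from 3.08 ± 1.05 to 5.85 ± 0.529 CPM (0.92, SE 0.27, adjusted p = 0.0413) and rose against sham (1.52, adjusted p = 0.0131), and Mif itself fell from 79.6 ± 3.19 to 67.5 ± 3.05 CPM (−0.24, SE 0.06, adjusted p = 0.0322). Without sham 3 and cancer 3 neither passed against cancer (Cxcr4 0.92, adjusted p = 0.071; Mif −0.21, adjusted p = 0.0597), nor with the ganglion covariate (0.84, adjusted p = 0.162; −0.23, adjusted p = 0.0949). Against sham Cxcr4 passed in both (1.57 and 1.44). Cd44, the signalling partner of CD74, was singled out after its values were seen. It had 11.9, 13.5 and 31.5 CPM in sham, 11.7, 13.6 and 35.6 in cancer and 78.4, 49.0 and 79.6 with nivolumab, and did not pass (1.77, adjusted p = 0.0722). Its high sham and cancer libraries were those high in ganglion markers, sham 3 and cancer 3, and the part of ganglion tissue was not tested. In the colon none of the 6 passed.

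Among promoter partners of the RFX complex and coactivators of CIITA, 2 of 13 fell in the dorsal horn with nivolumab against cancer, beside 17.2% of all genes called. They were the acetyltransferase Crebbp (from 82.6 ± 4.97 to 64.3 ± 1.92 CPM, −0.36, adjusted p = 0.00933) and Ncoa1 (−0.24, adjusted p = 0.0490), and none rose (median −0.04). Of 5 tested relatives in the RFX family 2 fell beside Rfx5, Rfx3 (−0.49, adjusted p = 0.0177) and Rfx1 (−0.31, adjusted p = 0.0476), with all 5 negative (median −0.31). Without sham 3 and cancer 3, Crebbp and Ncoa1 fell again (−0.35 and −0.31) and 1 of the 5 relatives fell, Rfx3 (−0.52). With the ganglion covariate 2 of the 13 rose and 2 fell, Crebbp among the latter (−0.41), Ncoa1 had −0.15 (adjusted p = 0.30), Rfx1 fell (−0.46) and Rfx3 had −0.42 (adjusted p = 0.0873). None of these genes passed against sham (Nfyc, an NF-Y subunit, −0.27, adjusted p = 0.0508) or in the colon. Of 6 factors that act at the Ciita promoters none passed in either tissue. Irf4 had 17.1 ± 2.24 CPM in sham colon, 6.45 ± 2.73 in cancer (−1.40, adjusted p = 0.366) and 5.21 ± 3.15 with nivolumab (−1.71, adjusted p = 0.562), and Pax5 had 1.66 ± 0.176 in cancer and 1.16 ± 0.363 with nivolumab in the dorsal horn (adjusted p = 0.250).

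The markers of cells that carry class II, and of tissue around the cord, were set beside the dorsal horn values of Cd74. Macrophage and microglia markers (14 genes) summed to 246 to 307 CPM in sham, 223 to 266 in cancer and 265 to 302 with nivolumab, and 1 of 14 rose with nivolumab against cancer, Ly86 (from 9.42 ± 5.78 to 43.1 ± 12.9 CPM, adjusted p = 0.0136), a partner of the receptor CD180. A separate list of 9 microglia markers summed to 155 to 274 CPM in sham, 138 to 219 in cancer and 223 to 270 with nivolumab, so that cancer and nivolumab did not overlap, as for Cd74. In the main fit 1 of 9 rose against cancer, with all 9 positive (median 0.39). Against sham 0 of 9 were called, with 5 positive (median 0.007). Only with the ganglion covariate did all 9 rise against cancer (median 1.51), the fractalkine receptor Cx3cr1 by 1.51 and the purine receptor P2ry12 by 2.03. In that fit 8 of 9 rose against sham (median 1.11). With that covariate 3 of the 14 shared markers rose and 1 fell against cancer, and Ly86 had 1.42 (adjusted p = 0.0512). Their part in the Cd74 values was not tested. Border macrophage markers (7 genes) summed to 7.73 to 13.7, 6.95 to 9.27 and 7.44 to 10.8 CPM. B cell markers (9 genes) summed to 2.92 to 3.67, 2.90 to 5.70 and 3.42 to 3.84 CPM, and 7 of them were under 1 CPM in every library. T and NK cell markers (11 genes) summed to 1.14 to 1.85, 1.96 to 4.55 and 2.25 to 2.95 CPM, and of 2 tested Lck rose with nivolumab against sham (from 0.648 ± 0.126 to 1.49 ± 0.203 CPM, adjusted p = 0.0441). Of 9 dendritic cell markers Xcr1 was at 0 in all 9 libraries, which allows up to 0.132 CPM, 3 markers in all were under 1 CPM in every library, and the sum of 54.4 to 63.6 CPM came mostly from Flt3, at 34.1 to 45.4, the 1 gene of the list called between nivolumab and cancer (it fell by 0.29, adjusted p = 0.0161).

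Markers of neighbouring tissue did move with the group. Of 14 ganglion markers 4 rose with nivolumab against cancer and 10 did not pass (14 positive, median 2.68). Of 10 Schwann cell markers 3 rose (median 1.03), with sums of 443 to 1136 CPM in sham, 315 to 791 in cancer and 1261 to 1542 with nivolumab. Of 9 meningeal and fibroblast markers 2 rose and 1 fell, and the 8 skeletal muscle markers were all positive without passing (median 2.27). Of 11 dorsal horn neuron markers 7 fell (median −0.50). Red blood cell markers (5 tested) were highest in sham, with sums of 738 to 1274 CPM, beside 109 to 221 in cancer and 220 to 291 with nivolumab. Of these 4 fell in cancer against sham (median −2.73), all 5 fell with nivolumab against sham (median −1.98), and none passed between nivolumab and cancer. The part of these cells and tissues in the Cd74, Rfx5 and Nlrc5 values was not tested. The fits without sham 3 and cancer 3 and with the ganglion covariate do not separate it from nivolumab.

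**Figure D5:**
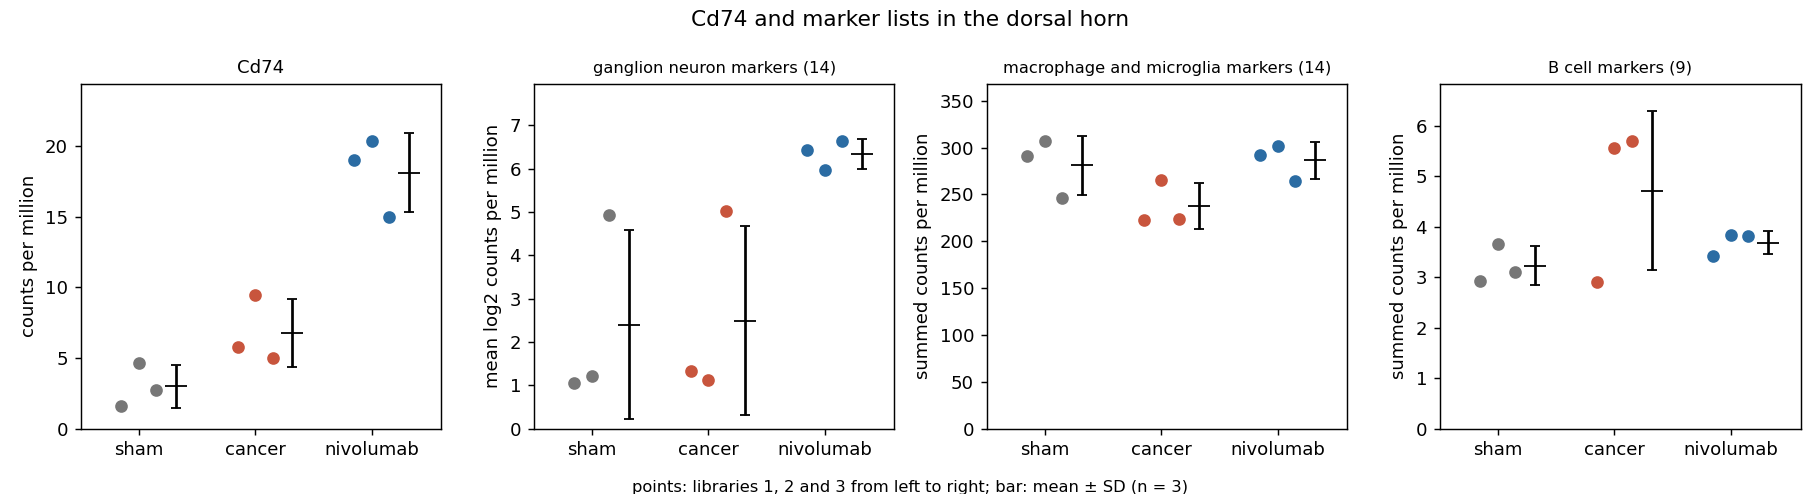
Cd74 in CPM, the mean log2 level of 14 ganglion neuron markers, and the summed levels of 14 macrophage and microglia markers and 9 B cell markers in each dorsal horn library, with group means ± SD (n = 3). Sham 3 and cancer 3 have ganglion marker levels of 4.93 and 5.01 and Cd74 levels of 2.77 and 5.04. The nivolumab libraries have 5.96 to 6.63 and 14.95 to 20.3, the highest of both. The summed macrophage markers overlap between the groups.

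In the colon, several lists moved with the groups without passing. Smooth muscle and enteric nerve markers were positive in 7 of 7 for cancer against sham (median 0.76) and in 0 of 7 for nivolumab against cancer (median −1.54), as Cd74 and Ciita were. Endothelial markers were likewise positive in 7 of 7 (median 0.44) and then in 0 of 7 (median −0.73), with sums of 79.4 to 110 CPM in sham, 39.8 to 199 in cancer and 68.1 to 93.8 with nivolumab. Single libraries picked from these lists are given as a description only. Cancer 3, with 3969 CPM of Cd74, had the lowest sum of the 14 macrophage markers (293 CPM, beside 490 to 725 in the other 8 libraries) and of the 9 dendritic cell markers (12.7, beside 17.2 to 45.0). The highest sums of both lists, 725 and 45.0 CPM, were in the cancer group as well. B cell markers (9 genes) summed to 26.8 to 113 CPM in sham, 23.2 to 72.7 in cancer and 10.03 to 107 with nivolumab, and the 3 nivolumab libraries, all low in Ciita, had 10.03, 107 and 96.7. Plasma cell markers (6 genes) summed to 1468 to 1749 CPM in sham, 583 to 1041 in cancer and 837 to 904 with nivolumab. Smooth muscle and enteric nerve markers (7 genes) summed to 980 to 14087 CPM in sham, 4928 to 16564 in cancer and 2152 to 3530 with nivolumab. Sham 3, the lowest of all at 980, had a Ciita level of 50.4 CPM. That was the lowest among the sham and cancer libraries and above every nivolumab library. None of these markers passed in the colon, where 0% of all genes did, and their part in the colon values was not tested.

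The genes whose log2 level ran most closely with a gene of the set over the 9 libraries of a tissue are given as a description, since group differences and library composition enter each value. Among 11707 colon genes these were Upp1, Kifc3, Tollip, Snrpn and Pnpla7 for Cd74 (Pearson r 0.94 to 0.96), Cpeb2, Sh3d19, Cdc42bpb, Hivep1 and Ric1 for Ciita (0.89 to 0.91), and Rgs17, Perm1, Fam49a, Trex1 and Ifi47 for Nlrc5 (0.91 to 0.94). Among 11986 dorsal horn genes they were Sertad4, Mtcl1, Tmed8, Hcn3 and Mdga1 for Cd74 (0.94 to 0.98), Calr, Khdrbs3, Sdk2, Loxl1 and Ror1 for Ciita (0.95 to 0.97), and Trim45, Zfp560, Eif2ak2, Exoc6 and Itga4 for Nlrc5 (0.95 to 0.98). Trex1 degrades cytosolic DNA, Ifi47 is an interferon-inducible GTPase and Eif2ak2 is the antiviral kinase PKR. Cd74 and Ciita had r = 0.70 over the colon libraries and 0.72 over those of the dorsal horn.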

How the data were processed

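The authors deposited raw counts, whole numbers for each gene, in a separate table for each tissue. FastQC 0.11.5, Trimmomatic, HISAT2, StringTie and GRCm38 are named in the submitters' processing notes. The sources used here name no counting tool, strand setting or annotation, so reads of overlapping genes cannot be told apart.

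Each tissue was fitted with all 9 libraries by the quasi-likelihood test of edgeR 4.0.16 (R 4.3.3, TMM scaling, expression filter by group, robust dispersions), which left 13445 colon and 13609 dorsal horn genes. Tests were two-sided, p-values were adjusted over all genes tested (Benjamini-Hochberg, threshold 0.05), and the fit was tested on simulated data. Each standard error is the absolute log2 fold change over the square root of F. Tissues were compared in 1 fit of 18 libraries over 14164 genes, in which TMM scaling assumes that most genes do not differ. CPM values are scaled by TMM factors, with a prior count of 2 on the log2 scale. Exon lengths and coordinates came from GENCODE vM21 (GRCm38). The floor of 3 counts covers counting error only, because amplified reads lacking molecular identifiers are not independent. Libraries of the same group all differed beyond sampling noise (chi-square per degree of freedom at least 71.9 for colon and 9.71 for dorsal horn).

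The 8 genes and the gene lists were chosen with earlier results of these data known. All 8 are named. For each list and contrast the rule named at most 4 called genes, taken by smallest adjusted p, or, where none was called, at most 2 by smallest p, and the text gives a selection of these. The 5 genes most like Cd74, Ciita and Nlrc5 were taken by Pearson correlation among genes averaging 1 log2 CPM or more. Alternatives were other scaling factors, no expression filter, no robust dispersions, DESeq2 1.42.0, 2 groups only, a replicate block, leaving out libraries, and a ganglion marker covariate, the last 2 for the dorsal horn gene lists being chosen after seeing the data. Libraries of 1 replicate number deviated together in each pair only between dorsal horn cancer and nivolumab (r = 0.190 to 0.276). Some items of the lists are not reported here.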

Additional observations from a re-analysis of the deposited data

Results flagged for a closer look

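Cd74 between nivolumab and cancer stood out because all 3 nivolumab libraries lay below all 3 cancer libraries in the colon and above them in the dorsal horn. The difference of the responses was −2.62 (log2, colon minus dorsal horn, SE 0.52), and edgeR did not call it in the fit of all 18 libraries over all genes. DESeq2 called it, and edgeR did so without some single colon libraries. These calls are a description and support nothing.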

How the results depend on the processing

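Of 992 alternative values for 60 fold changes of the 8 genes, 918 kept direction and side of the threshold, 8 lost the threshold (Cd74 in 6 and Rfx5 in 2, nivolumab against cancer in the dorsal horn), 24 passed it newly and 42 changed sign, and the cause was not tested. RLE factors, the expression filter and robust dispersions changed no count of the 8 genes called in the group contrasts. DESeq2 called 2, 2 and 1 of the 8 in the colon (cancer against sham, nivolumab against cancer, nivolumab against sham), 1 in dorsal horn cancer against sham, 3 in nivolumab against sham, and 2 for the tissue difference of the nivolumab response. For dorsal horn nivolumab against sham (1 called), 2 groups only gave 2, the ganglion covariate 2 and leaving out sham 3 and cancer 3 together 2, with 1 to 2 on leaving out single libraries. For nivolumab against cancer (2 called) single libraries gave 0 to 2 (0 without nivolumab 1 or nivolumab 3) and leaving out sham 3 and cancer 3 together gave 1. For the tissue difference of the nivolumab response (0 called) single libraries gave 0 to 2, with 2 without colon sham 2, sham 3 or cancer 1.

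Elsewhere than in dorsal horn nivolumab against cancer the replicate numbers did not pair the samples (colon correlations of −0.442 to 0.458, dorsal horn −0.0779 to 0.527). In that comparison the replicate block left 2 of the 8 called. With the replicate number as a block, 3 of the 8 genes were called in dorsal horn nivolumab against sham (Nlrc5 at adjusted p = 0.0431 and Rfx5 at 0.0297, by edgeR, joining Cd74), and the tissue difference of the cancer response of Cd74 was −0.030.

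Signs changed as follows. Leaving out single libraries moved Cd74 in colon nivolumab against sham over −0.21 to 0.14 and its tissue difference of the cancer response over −0.50 to 0.36 (upper-quartile factors −0.021, without sham 3 and cancer 3 −0.13). Ciita moved over −0.020 to 0.47 in dorsal horn cancer against sham and over −0.037 to 0.59 for the tissue difference of the cancer response. Ctss moved over −0.29 to 0.11 and −0.10 to 0.29 in the colon (nivolumab against cancer and against sham). In the dorsal horn Ctss moved over −0.25 to 0.17 for cancer against sham (0.21 without sham 3 and cancer 3), −0.17 to 0.26 for nivolumab against cancer (−0.17) and −0.091 to 0.17 for nivolumab against sham (0.048, 0.0077 with 2 groups only and 0.36 with the ganglion covariate). Ifi30 moved over −0.39 to 0.0021 in colon cancer against sham and −0.25 to 0.10 in dorsal horn nivolumab against sham (0.12 without sham 3 and cancer 3). Nlrc5 moved over −0.48 to 0.082 in colon nivolumab against sham and −0.013 to 0.62 in dorsal horn nivolumab against cancer (−0.46 with the covariate). Rfxap moved over −0.083 to 0.042 in dorsal horn cancer against sham (0.11 without sham 3 and cancer 3).

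Over all genes, the colon counts of 0 became 1 in cancer against sham with the block and 7 in nivolumab against sham with 2 groups only, and ran over 0 to 9, 0 to 2 and 0 to 3 without single libraries. In the dorsal horn the 44 calls of cancer against sham became 115 with the block, 361 with DESeq2, 2 with 2 groups only, 91 without sham 3 and cancer 3, 399 with the covariate and 2 to 125 without single libraries. The 2345 of nivolumab against cancer ran over 771 to 2717 and the 1158 of nivolumab against sham over 95 to 1237 without single libraries, and the latter became 1956 with DESeq2 and 2065 with the covariate. Ciita in the dorsal horn rested on 26 to 58 counts per library.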
